A study of Mus musculus with 6 samples.

Results

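A set of 10 genes of H3K9 methylation and heterochromatin was followed by RNA sequencing in dorsal root ganglia, the clusters of sensory neurons beside the spinal cord. They were taken by name from the 47643 gene identifiers counted: the methyltransferases Ehmt1, Ehmt2, Setdb1, Suv39h1 and Suv39h2, the HP1 proteins Cbx1, Cbx3 and Cbx5, the corepressor Trim28 and the remodeller Atrx. All 6 libraries were made from total RNA of CD-1 mouse ganglia of embryonic day 13. For 3 libraries the cells had been given lentivirus carrying the control hairpin shControl, and for the other 3 lentivirus carrying shUHRF1, the knockdown hairpin for Uhrf1. The stated aim was to follow transcription after UHRF1 knockdown in neurons without injury. Both groups were therefore given virus, and uninfected cells were not analysed here. The labels give neither the hairpin sequences nor the sex of the embryos, and do not say whether the libraries came from separate cultures or animals. A p-value here therefore sets a group difference only against the variation between these libraries, and that variation may be technical.

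Methylation of lysine 9 on histone H3 is a defining mark of heterochromatin. EHMT1 (GLP) and EHMT2 (G9a) form a dimer that places the mono- and dimethyl marks in euchromatin. SETDB1 is brought to retrotransposons by TRIM28, which itself is recruited by KRAB zinc finger proteins, while SUV39H1 and SUV39H2 place the trimethyl mark in pericentromeric repeats. The HP1 proteins, HP1β (Cbx1), HP1γ (Cbx3) and HP1α (Cbx5), bind methylated lysine 9 and recruit further methyltransferase. ATRX, with its partner DAXX, deposits the histone variant H3.3 in heterochromatin. UHRF1 reads both methylated lysine 9 and hemimethylated DNA.

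Sequence limits what the counts can say about Cbx3. The annotation held 13 other loci with at least 90% identity to the Cbx3 coding sequence over at least 200 bases, of which 11 are pseudogenes. Of these loci 9 were in the count tables, with identities of 90.2 to 99.8% over all 13. The highest count in a library was 61 reads, for Als2cr12, a protein-coding gene that aligned over 319 bases. The other counted loci, all pseudogenes, had at most 1 read in a library. A read that maps equally well to 2 places is usually not counted for either. The first 60 bases of the coding sequence (GENCODE annotation on GRCm38) are printed for Cbx3, on chromosome 6, and for a pair of its pseudogenes, on chromosomes 14 and 13, because most of this stretch cannot tell them apart. Capitals mark bases that differ from Cbx3.
Cbx3: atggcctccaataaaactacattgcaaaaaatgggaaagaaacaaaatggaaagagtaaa
Cbx3-ps6: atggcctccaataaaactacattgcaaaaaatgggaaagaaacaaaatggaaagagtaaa
Cbx3-ps4: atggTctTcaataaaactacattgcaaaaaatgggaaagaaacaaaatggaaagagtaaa
Cbx3-ps6 had the same 60 bases as Cbx3, and Cbx3-ps4 differed at 2 of them. The level of Cbx3 given here is thus uncertain. At the same identity, Cbx1 had 1 such copy and Setdb1 had 1 (at most 2 reads in a library). Suv39h1 had only an overlapping antisense gene, Gm14820 (at most 9 reads). Ehmt1, Ehmt2, Suv39h2, Cbx5, Trim28 and Atrx had none. Whether strand was used in counting is not given in the sources used here, so reads of overlapping genes on opposite strands cannot be told apart. Besides Gm14820, this concerns Suv39h2, which shares 357 exonic bases with Dclre1c, and Setdb1, which shares 75 with Cers2 and 249 with Gm37500.

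Libraries held 15599776 to 22382813 reads in genes. The targeted gene was measured at the edge of detection: below the filter on low counts, Uhrf1 had 8, 6 and 5 reads in shControl replicates 1, 2 and 3, and 2, 1 and 5 in shUHRF1. Its summed level in shUHRF1 was 0.377 times that of shControl (95% interval 0.143 to 0.901, counting error only; exact permutation p = 0.2, two-sided, where 3 against 3 libraries cannot go below 0.1), so these libraries check the hairpin only weakly. The level of Uhrf1 is also uncertain because of the pseudogene Gm5648, with 98.3% identity over 1590 of the 2349 coding bases. Reads shared with this copy may not be counted. Neuronal markers were abundant, with 15 of 15 tested and a summed 25640 to 30830 CPM (read counts scaled to library size) in shControl and 21150 to 27040 in shUHRF1. By edgeR's quasi-likelihood test 1 of the 15 was lower in shUHRF1 and 0 higher: Tubb3, the most abundant in shControl, fell from 5378 to 3201 CPM (adjusted p = 0.0168), and with the replicate block 3 were lower and 1 higher. Markers of other cells were detected too. By edgeR's quasi-likelihood test, 8 of 13 tested Schwann and satellite glia markers, 9 of 10 fibroblast markers, 5 of 9 macrophage markers and 3 of 8 endothelial and mural markers were higher in shUHRF1, 1 glial marker was lower, and none of 6 cycling-cell markers passed, where 11.6% of all genes tested were higher and 12.4% lower. Genes that passed the filter only through the group where they are high had to differ, so these counts lean to increases. No listed marker was at 0 reads in all 6 libraries. Their summed levels in shControl and shUHRF1 were 581.5 to 680 and 217.7 to 627.3 CPM for glia, 824.5 to 999.4 and 1068 to 1300 for fibroblasts, 6.80 to 13.4 and 17.8 to 47.4 for macrophages, 43.7 to 46.9 and 42.0 to 62.2 for endothelium and mural cells, and 23.2 to 26.7 and 15.8 to 25.9 for cycling cells. The 2 most abundant tested genes of the glial, fibroblast and macrophage lists did not all follow these counts. For glia, S100b did not pass (248 and 171 CPM in shControl and shUHRF1; edgeR adjusted p = 0.525) and Mbp fell from 135 to 70.03 CPM (0.0217). In the fibroblast list, Vim, which made up most of the sum, rose from 603 to 852 CPM (edgeR adjusted p = 0.0479). Thy1 did not pass (320 and 181 CPM, edgeR adjusted p = 0.0783). Postn, the next most abundant, was at 2.96 and 58.9 CPM. The sum of this list therefore mostly follows Vim and Thy1, and was not shown to measure fibroblasts. For macrophages, Aif1 did not pass (3.25 and 5.33 CPM; edgeR adjusted p = 0.361) and Lyz2 rose from 0.493 to 6.81 CPM (0.0182). The part of other cells in the results below was not tested, and in bulk RNA fewer cells of a type and less RNA per cell cannot be told apart.

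All 10 genes were expressed, with 58 to 6660 reads per gene and library, and all passed the filter on low counts. Suv39h1 was the only one that differed between the groups by edgeR's quasi-likelihood test at an adjusted p below 0.05, and it was lower in shUHRF1. Over all 15573 genes tested, 24% were called, 11.6% higher and 12.4% lower, and the count of 1 in 10 is no larger than that background. The other 9 genes did not pass, and for 8 of these (all but Ehmt1) the 95% interval of the log2 fold change lay within 1 log2 unit of 0. The median log2 fold change of the 10 genes was -0.10, with 4 above and 6 below 0, against 0.02 over all genes tested. The CPM values of the 2 groups did not overlap for Atrx (higher) and for Suv39h1, Suv39h2, Cbx5 and Trim28 (lower). This is 5 of 10 genes, where 44% of all genes tested showed such separation.

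**Figure D1:**
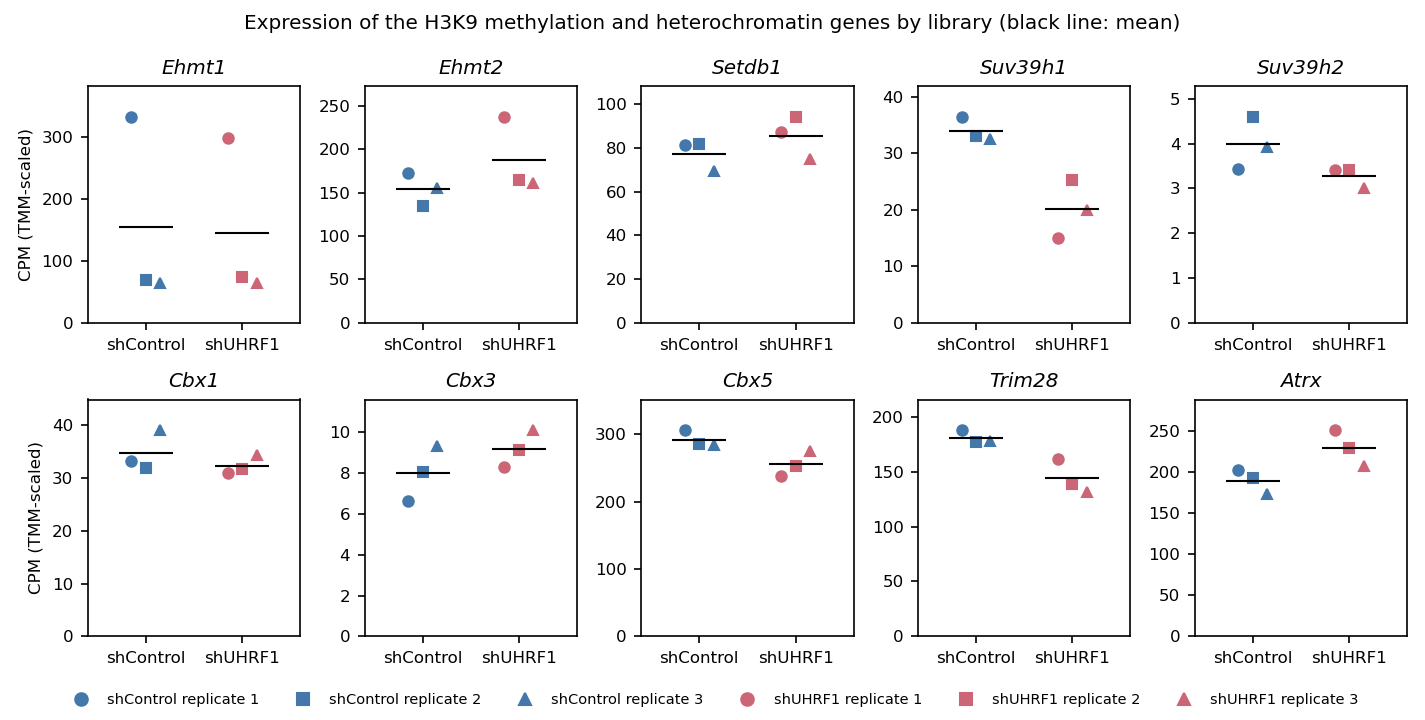
Level of each of the 10 genes in every library, in CPM on a linear axis from 0, 1 panel per gene, with shControl and shUHRF1 side by side. Each point is a library, its shape gives the replicate number, and the black line is the group mean. Suv39h1 is separated between the groups, while the libraries numbered 1 stand far above the rest for Ehmt1.

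Suv39h1 and Suv39h2 encode the enzymes of the pericentromeric trimethyl mark. Suv39h1 (ENSMUSG00000039231.18, chrX:8061171-8074760, minus strand, mm10) had 36.5, 33.0 and 32.5 CPM in shControl replicates 1, 2 and 3, and 15.1, 25.3 and 19.9 CPM in shUHRF1. Every shUHRF1 library was below every shControl library, and the shUHRF1 libraries differed more among themselves. The means were 34.0 ± 2.15 and 20.1 ± 5.12 CPM (SD, n = 3 each), a log2 fold change of -0.76 (SE 0.19, 95% interval -1.20 to -0.32), or 0.591 times the control level, with an edgeR adjusted p of 0.0243. The decrease kept its direction without each library in turn (log2 fold change -0.98 to -0.59), but the call did not: edgeR's adjusted p was 0.0812, 0.0512 and 0.066 without shControl replicates 1, 2 and 3 and 0.0781 without shUHRF1 replicate 3. It held without shUHRF1 replicate 1 or 2.

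Suv39h2 (ENSMUSG00000026646.16, chr2:3455815-3475031, minus strand) was the least abundant of the 10 per length. It had 3.43, 4.60 and 3.92 CPM in shControl against 3.41, 3.42 and 3.003 CPM in shUHRF1. The groups lay just apart: the lowest shControl library and the highest shUHRF1 library differed by less than the spread in either group. Its log2 fold change was -0.28 (SE 0.22, 95% interval -0.79 to 0.23; edgeR adjusted p = 0.406), on 58 to 82 reads per library. The 2 enzymes therefore had the same sign, and only Suv39h1 passed the test. Within a library, the log2 ratio of Suv39h1 to Suv39h2 per length was 3.14, 2.58 and 2.79 in shControl and 1.88, 2.62 and 2.47 in shUHRF1. These ranges overlapped, and the difference of -0.51 had an exact permutation p of 0.2 (two-sided, n = 3 each; 0.5 after Benjamini-Hochberg adjustment over 5 ratios), so unequal change of the 2 genes was not shown.

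The stretches upstream of the first exons of these 2 genes are shown for their CG dinucleotides, the DNA sites whose methylation UHRF1 is known to read. No DNA methylation was measured here. They are from RefSeq on GRCm38.p6, minus strand, written 5′ to 3′ with each CG in capitals, and end where the first annotated exon begins. The Suv39h1 stretch is chrX:8074761-8075010 (250 bases, 11 CG), and the Suv39h2 stretch is chr2:3475032-3475236 (205 bases, 22 CG).
Suv39h1: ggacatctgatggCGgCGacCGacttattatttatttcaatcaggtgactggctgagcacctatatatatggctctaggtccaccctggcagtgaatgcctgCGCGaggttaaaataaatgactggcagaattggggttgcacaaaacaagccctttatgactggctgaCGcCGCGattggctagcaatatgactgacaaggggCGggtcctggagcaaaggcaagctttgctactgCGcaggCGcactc
Suv39h2: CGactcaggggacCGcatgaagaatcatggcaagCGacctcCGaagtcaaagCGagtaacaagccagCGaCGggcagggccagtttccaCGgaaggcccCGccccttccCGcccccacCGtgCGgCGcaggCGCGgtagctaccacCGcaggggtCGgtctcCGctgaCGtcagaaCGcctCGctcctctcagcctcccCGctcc
Over the 32851 annotated start sites, the 250 bases upstream held a median of 6 CG. All 10 genes were found among them, and each of their start sites had at least that number. Atrx had 6 and Suv39h2 27. The first Suv39h1 start site had 11 and its second 25, so the lower number in the printed stretch holds for the first start site only. The most, 36, lay before the second start site of Ehmt2. The NRF1 motif (GCGCA and GCGC separated by any base) was found on either strand before a start site of Ehmt1, Suv39h1, Suv39h2 and Cbx5, and in 3.7% of all upstream windows. An E2F motif (TTTCCCGC, TTTCGCGC, TTTGCCGC or TTTGGCGC, either strand) was found before a start site of Suv39h1 and Cbx3, and in 1.9% of all windows. The other motifs searched were ETS (CCGGAAG) and SP1 (GGGCGG), on either strand. Of the 10 genes, ETS was found only before Setdb1, and in 6.9% of all windows. SP1 was found before a start site of each gene but Atrx, and in 32.7% of all windows. Some of the 10 genes had more than 1 window, and all windows but that of Atrx held more CG than the median, so the shares are not matched. These are matches of letters and show no binding.

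Ehmt1 and Ehmt2 encode the G9a/GLP dimer. Ehmt1 (ENSMUSG00000036893.17, chr2:24789928-24919614, minus strand) had 332.5, 69.3 and 64.6 CPM in shControl against 299, 73.4 and 63.8 CPM in shUHRF1. The libraries numbered 1 stood apart in both groups, and within a number the 2 groups were close. The means, 155 ± 153 and 145 ± 133 CPM, were set by those 2 libraries. The log2 fold change of -0.09 (SE 0.78) had a 95% interval of -1.88 to 1.69 (edgeR adjusted p = 0.948). With the replicate number as a block it was -0.03 (SE 0.11; edgeR adjusted p = 0.851). Its sign depended on single libraries, from -1.19 without shUHRF1 replicate 1 to 1.09 without shControl replicate 1.

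The excess in the libraries numbered 1 was described further, after its values were seen, as the lower of the 2 libraries numbered 1 divided by the highest of the other 4. For Ehmt1 this was 4.08, the highest of 15573 genes, followed by Gm10801 at 2.99 and Rassf2 at 2.57. By this measure 7 genes were above 2, and by the same measure for the libraries numbered 2 and 3, 88 and 4 genes. Cacna1b, a calcium channel gene 26775 bases from Ehmt1 on the same strand, had 1023, 499 and 474 CPM in shControl against 908, 495 and 383 CPM in shUHRF1. It was also highest in the libraries numbered 1, with 1.82 by the same measure, at rank 12. Arrdc1, on the other side of Ehmt1, had 33.9, 31.9 and 32.7 CPM in shControl against 36.8, 32.8 and 33.6 CPM in shUHRF1, and was at rank 894 with 1.01. What the libraries numbered 1 share beyond their number is not given in the labels.

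Ehmt2 (ENSMUSG00000013787.15, chr17:34898469-34914052, plus strand) had 173, 135 and 155 CPM in shControl against 237, 164 and 161 CPM in shUHRF1. Only shUHRF1 replicate 1 lay above the whole shControl range. The means were 154 ± 19.1 and 188 ± 43.1 CPM, a log2 fold change of 0.28 (SE 0.18, 95% interval -0.13 to 0.69; edgeR adjusted p = 0.286). Each shUHRF1 library was above the shControl library of its number, and with the replicate block edgeR's adjusted p was 0.13. Within a library, the log2 ratio of Ehmt1 to Ehmt2 per length was 0.38, -1.52 and -1.83 in shControl and -0.23, -1.73 and -1.90 in shUHRF1. In all 3 numbers it was lower in shUHRF1, by 0.61, 0.20 and 0.07, a mean difference of -0.30 (exact permutation p = 0.6, two-sided, n = 3 each; 0.6 adjusted over 5 ratios). Most of the spread was between the numbers. With the numbers as pairs, the exact permutation p was 0.25, the smallest that 3 pairs allow.

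Setdb1 (ENSMUSG00000015697.14, chr3:95323525-95357202, minus strand), the enzyme of the TRIM28 pathway, had 81.1, 81.6 and 69.3 CPM in shControl against 87.1, 94.1 and 74.8 CPM in shUHRF1. The ranges overlapped, although each shUHRF1 library was above the shControl library of its number, and the log2 fold change was 0.14 (SE 0.13, 95% interval -0.15 to 0.44; edgeR adjusted p = 0.462, and 0.331 with the replicate block). The corepressor that recruits it had the opposite sign, and it did not pass the test either. Trim28 (ENSMUSG00000005566.13, chr7:12999114-13031035, plus strand) had 188, 177 and 178 CPM in shControl against 161, 139 and 132 CPM in shUHRF1. Every shUHRF1 library was below every shControl library. The means were 181 ± 6.004 and 144 ± 15.3 CPM, and the log2 fold change was -0.33 (SE 0.11, 95% interval -0.59 to -0.07), with an unadjusted p of 0.02 and an edgeR adjusted p of 0.071. DESeq2 placed Trim28 just past the threshold (log2 fold change -0.33, adjusted p = 0.0452), as did edgeR without shUHRF1 replicate 1 (-0.42, adjusted p = 0.0285).

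**Figure D2:**
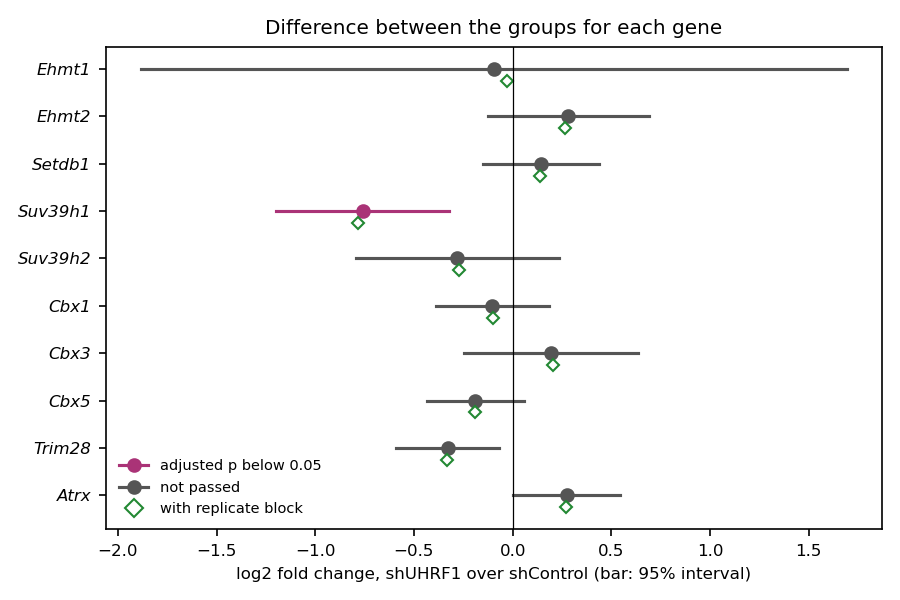
Log2 fold change of each gene (shUHRF1 against shControl) from edgeR's quasi-likelihood fit, as filled points with a bar for the 95% interval; open diamonds give the fit with the replicate number as a block. Only Suv39h1 passed the adjusted threshold, the bar of Ehmt1 is the widest, and the diamonds lie close to the points.

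The HP1 genes encode the readers of the mark. Cbx5 (HP1α, ENSMUSG00000009575.14, chr15:103191544-103239816, minus strand) had 306, 286 and 284 CPM in shControl against 239, 253 and 276 CPM in shUHRF1. All 3 shUHRF1 libraries were below shControl, the nearest by less than the spread within shUHRF1. The log2 fold change was -0.19 (SE 0.11, 95% interval -0.44 to 0.06; edgeR adjusted p = 0.236). Cbx1 (HP1β, ENSMUSG00000018666.13, chr11:96789127-96808640, plus strand) had 33.3, 31.8 and 39.0 CPM in shControl against 30.9, 31.7 and 34.2 CPM in shUHRF1, which overlapped (log2 fold change -0.10, SE 0.13, 95% interval -0.39 to 0.18; edgeR adjusted p = 0.592). Cbx3 (HP1γ, ENSMUSG00000029836.15, chr6:51470360-51483704, plus strand) had 6.62, 8.03 and 9.33 CPM in shControl against 8.26, 9.13 and 10.1 CPM in shUHRF1. The groups overlapped as well, although each shUHRF1 library was above the shControl library of its number (log2 fold change 0.19, SE 0.19, 95% interval -0.25 to 0.63; edgeR adjusted p = 0.504, and 0.362 with the replicate block), and its level is uncertain because of its copies.

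Per length, Cbx5 made up most of the HP1 reads that were counted. Its share of the sum of the 3 genes was 77.4 ± 2.42% in shControl and 75.8 ± 0.254% in shUHRF1. Reads that Cbx3 shares with its copies may not be counted, which would lower its share and raise those of Cbx5 and Cbx1. The shares also depend on the joined exon lengths used, 9006 bases for Cbx5, 4273 for Cbx1 and 5992 for Cbx3. Cbx1 held 19.4 ± 1.94% and 20.2 ± 0.379%, and Cbx3 3.19 ± 0.566% and 4.07 ± 0.126%. The Cbx3 share was 2.58, 3.31 and 3.69% in shControl and 3.93, 4.11 and 4.17% in shUHRF1. It was thus higher in every shUHRF1 library, by 0.878 percentage points between the means, at the smallest p that 3 against 3 libraries allow (exact permutation p = 0.1, two-sided, n = 3 each; 0.5 adjusted over 5 ratios). The shares of Cbx1 (difference 0.785 points, exact permutation p = 0.5) and Cbx5 (-1.66 points, exact permutation p = 0.4) overlapped between the groups, each with 0.6 after adjustment over the 5 ratios.

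**Figure D3:**
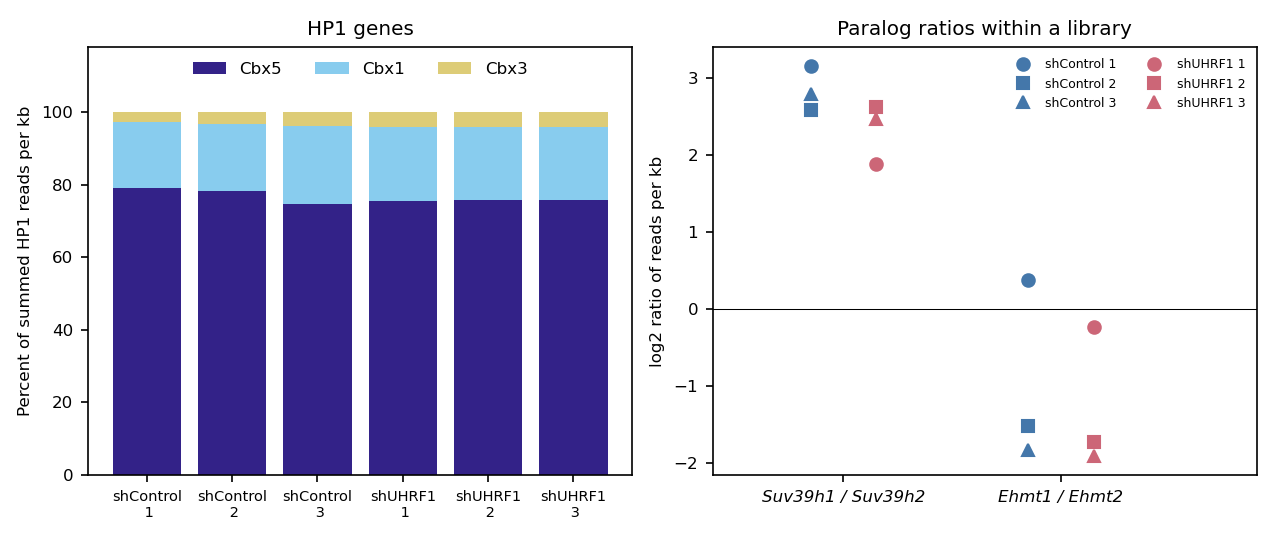
Values taken within each library, which do not depend on library scaling: stacked bars, 1 per library, give the shares of Cbx5, Cbx1 and Cbx3 in the HP1 sum per length (percent), and points, 1 per library with the replicate number as shape, give the log2 ratios per length of Suv39h1 to Suv39h2 and of Ehmt1 to Ehmt2. The share of Cbx3 is the only one of the 5 values whose groups do not overlap.

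Atrx (ENSMUSG00000031229.16, chrX:105797615-105929403, minus strand) was the only gene of the 10 with every shUHRF1 library above shControl. It had 203, 193 and 174 CPM in shControl against 251, 230 and 208 CPM in shUHRF1. The means were 190 ± 14.8 and 229.6 ± 21.9 CPM. The log2 fold change was 0.27 (SE 0.12, 95% interval 0.00 to 0.55), with an unadjusted p of 0.0494 and an edgeR adjusted p of 0.131. It passed only with upper-quartile scaling (0.40, edgeR adjusted p = 0.0477), a scaling under which the median over all genes shifted from 0.02 to 0.14 log2 units. Suv39h1, Trim28 and Atrx were the 3 genes of the 10 with an unadjusted p below 0.05. Of all genes tested, at least the 24% called after adjustment were also below it. The full share was not counted, so no excess is read from these 3. With the replicate block, 31% of all genes tested were called and Suv39h1 was again the only one of the 10.

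Levels between genes were compared per length, as RPKM, the CPM value divided by the length of the annotated exons in kilobases. This length joins the exons of all annotated transcripts of a gene, for example 21757 bases for Atrx and 4158 for Trim28. Which transcripts were expressed was not determined, and the order between genes depends on these lengths. In shControl the order was Trim28 (43.4 ± 1.44 RPKM), Cbx5 (32.4 ± 1.37), Ehmt2 (28.1 ± 3.48), Ehmt1 (19.1 ± 18.9), Setdb1 (11.3 ± 1.01), Atrx (8.73 ± 0.679), Cbx1 (8.12 ± 0.889), Suv39h1 (6.45 ± 0.408), Cbx3 (1.33 ± 0.226) and Suv39h2 (0.903 ± 0.133; SD, n = 3). The ranges of neighbours overlapped for Ehmt2 and Ehmt1, Ehmt1 and Setdb1, and Atrx and Cbx1, and Cbx5 and Ehmt2 came within rounding of each other (lowest 31.5 and highest 31.5 RPKM). In shControl Trim28 and Cbx5 thus had the highest means, and the SUV39H pair was among the 3 scarcest. The place of Cbx3 is uncertain, since reads shared with its copies may not be counted. In shUHRF1 the mean of Ehmt2 (34.2 RPKM) was above that of Cbx5 (28.4) and close to that of Trim28 (34.6), and over all 6 libraries the ranges of neighbours from Trim28 down to Cbx1 overlapped. Atrx and Cbx1 overlapped per length in shControl; in shUHRF1 Atrx was the higher, with 10.6 against 7.56 RPKM in the means.

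**Figure D4:**
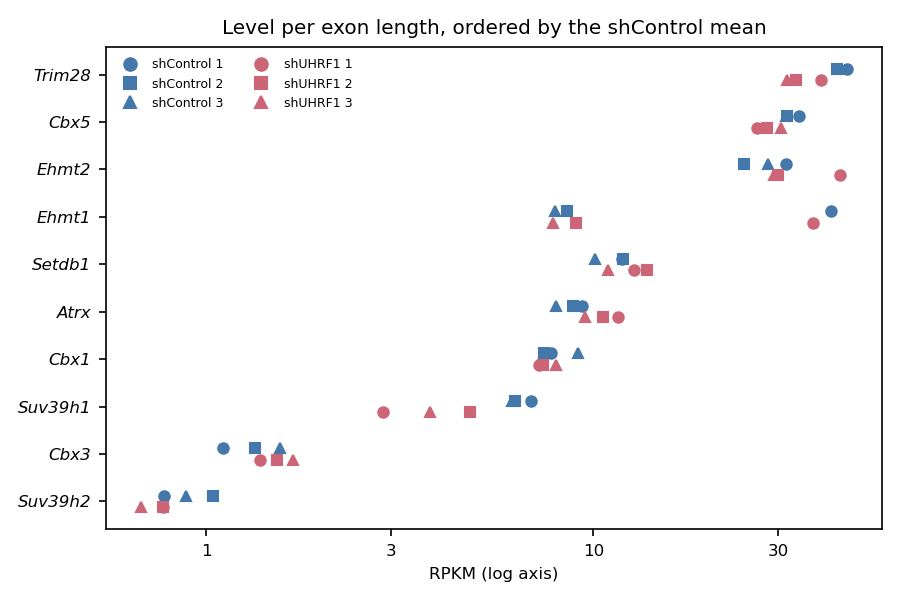
Level per length of the 10 genes in each library (RPKM, log axis), ordered by the shControl mean; each point is a library, coloured by group, with the replicate number as shape. The range runs from Trim28 at 43.4 RPKM to Suv39h2 at 0.903 RPKM in shControl, and Ehmt1 spans the widest range because of the libraries numbered 1.

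A further 60 genes of the same pathway were taken as a list. Of these, 54 passed the filter, 8 were higher and 2 lower in shUHRF1 by edgeR's quasi-likelihood test, and 44 did not pass. The background is again 11.6% higher and 12.4% lower. The list's median log2 fold change was 0.04, against 0.02 over all genes. The count of 10 varied when single libraries were left out. It was 1, 6 and 3 without shControl replicates 1, 2 and 3, and 6, 8 and 2 without shUHRF1 replicates 1, 2 and 3. The calls over all genes, 3735 with every library, varied too. In the same order they were 2018, 2870 and 1768, and 3190, 3888 and 2171. With upper-quartile scaling, 14 were higher and 0 lower, where 16.1% of all genes tested were higher and 8.85% lower.

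Most of these increases were in genes of H3K9 demethylases, the erasers of the mark. Of 11 such genes, all tested, 5 were higher and 0 lower, with a median log2 fold change of 0.26. Over all genes tested, 11.6% were higher and 12.4% lower. The 6 that did not pass were Kdm3b, Kdm4a, Kdm4b, Kdm4c, Kdm4d and Phf2. The lists were chosen with earlier results of these data known, so no excess is read from this count. Kdm7a, which removes dimethyl marks, had 15.5, 15.02 and 17.5 CPM in shControl against 35.1, 22.2 and 35.4 CPM in shUHRF1 (log2 fold change 0.95, SE 0.20; edgeR adjusted p = 0.0125). Kdm3a, another Jumonji demethylase, had 26.6, 32.6 and 34.9 CPM in shControl against 60.04, 39.6 and 51.7 CPM in shUHRF1 (0.69, SE 0.18; edgeR adjusted p = 0.028). Both were lowest in replicate 2 among the shUHRF1 libraries, and in both the groups did not overlap, as for 44% of all genes tested. The Kdm7a call was lost without shControl replicate 1 (edgeR adjusted p = 0.0532) and without shUHRF1 replicate 3 (0.0503). The Kdm3a call was kept only without shUHRF1 replicate 2 and otherwise lost (edgeR adjusted p 0.0613 to 0.106).

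Phf8, an X-linked demethylase, had 29.4, 23.8 and 24.2 CPM in shControl against 50.7, 35.1 and 35.0 CPM in shUHRF1 (log2 fold change 0.65, SE 0.18; edgeR adjusted p = 0.0352), and its call too was kept only without shUHRF1 replicate 2 (otherwise 0.0543 to 0.127). The other two, named after their values were seen, were Jmjd1c (0.44, SE 0.12; edgeR adjusted p = 0.0361) and Kdm1a (LSD1; 0.34, SE 0.10; edgeR adjusted p = 0.0482), and the block ended the call for Kdm1a (edgeR adjusted p = 0.0548). The summed level of the 11 genes was 599 to 636.1 CPM in shControl and 666.9 to 789.1 CPM in shUHRF1. The number of demethylases higher in shUHRF1 was 0, 2 and 1 without shControl replicates 1, 2 and 3. It was 2, 3 and 0 without shUHRF1 replicates 1, 2 and 3. Over all genes, those called higher numbered 1807 with every library. In the same order they numbered 933, 1229 and 822, and 1481, 1814 and 1022. The fibroblast and macrophage marker sums given above, the first of them mostly Vim and Thy1, were also higher in every shUHRF1 library. The part of such cells in the increases of the demethylases was not tested.

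Of the 3 ATRX partner genes, the 2 that encode histone H3.3 were higher and Daxx did not pass, where 11.6% of all genes tested were higher. H3f3a had 14.1, 11.9 and 11.8 CPM in shControl against 28.5, 21.3 and 25.5 CPM in shUHRF1. Its log2 fold change was 0.996 (SE 0.16; edgeR adjusted p = 0.00487), and it was called without each library in turn, in 6 of 6 fits. H3f3b had 35.5, 42.2 and 43.1 CPM in shControl against 88.7, 55.1 and 82.9 CPM in shUHRF1, with a log2 fold change of 0.91 (SE 0.19; edgeR adjusted p = 0.0122), and was called in 5 of 6 such fits (0.0558 without shControl replicate 1). Both genes were above shControl in every shUHRF1 library, where 44% of all genes tested had groups that did not overlap. The levels of H3f3a and H3f3b are uncertain, since H3f3a has 37 pseudogenes of at least 90% identity and H3f3b has 3. H3f3a also shares 638 exonic bases with Gm17275.

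**Figure D5:**
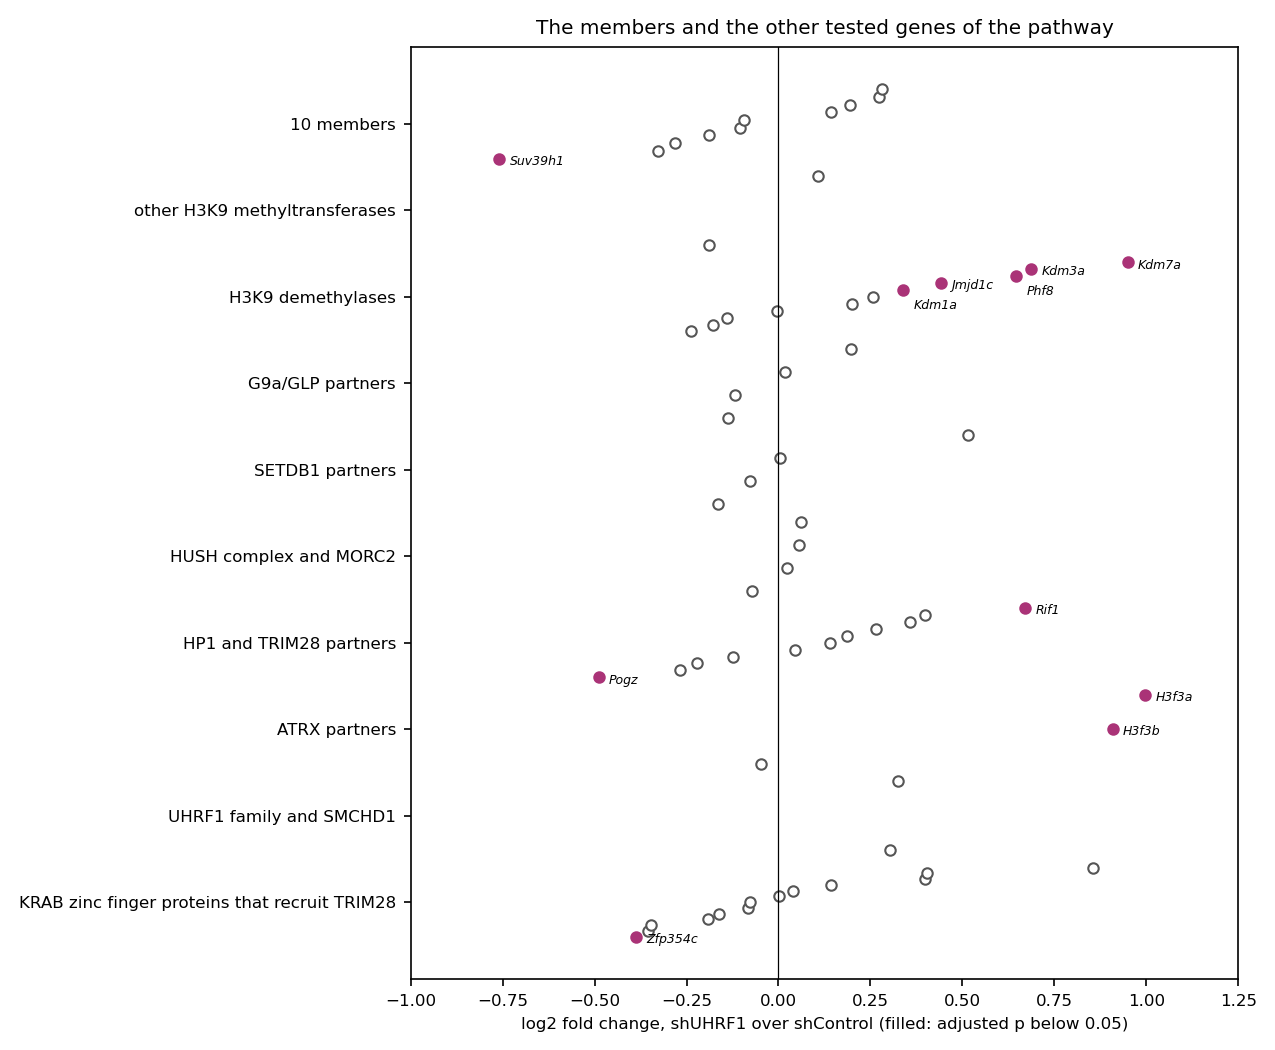
Log2 fold change (shUHRF1 against shControl) of the 10 genes and of the tested genes of the pathway list, 1 point per gene in rows by functional group; filled and named points passed edgeR's quasi-likelihood test. The demethylases and the H3.3 genes hold 7 of the 8 called increases of the list, and Pogz and Zfp354c are its 2 called decreases.

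Among the 11 HP1 and TRIM28 partners, 1 was higher and 1 lower, where 11.6% of all genes tested were higher and 12.4% lower. Rif1, which organises replication timing with heterochromatin, had 16.4, 20.3 and 14.3 CPM in shControl against 28.8, 26.1 and 26.1 CPM in shUHRF1 (log2 fold change 0.67, SE 0.16; edgeR adjusted p = 0.0202). Pogz, an HP1-binding zinc finger protein, had 35.1, 31.1 and 34.1 CPM in shControl against 23.8, 25.2 and 22.5 CPM in shUHRF1 (-0.49, SE 0.12; edgeR adjusted p = 0.021). The groups were separate for both, as they were for 44% of all genes tested. Rif1 and Pogz each lost the call when shControl replicate 1 or 3 or shUHRF1 replicate 3 was left out (edgeR adjusted p 0.0605 to 0.0829 for Rif1 and 0.0726 to 0.0794 for Pogz). Trim33 joined the calls with the block (edgeR adjusted p = 0.0409).

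Over all genes tested, 24% were called. Of 15 KRAB zinc finger genes, 13 were tested and 1 was called. This was Zfp354c, with 43.8, 48.9 and 47.5 CPM in shControl against 35.3, 38.0 and 34.0 CPM in shUHRF1 (log2 fold change -0.39, SE 0.11; edgeR adjusted p = 0.0376), and a call kept only without shUHRF1 replicate 2 (otherwise 0.0623 to 0.119). The partners of SETDB1 (4 of 5 tested), of G9a and GLP (4 of 4), the HUSH complex and MORC2 (4 of 4), the other methyltransferases (2 of 4), and the UHRF1 family with SMCHD1 (2 of 3) gave no call by edgeR. In these 5 groups, 2 genes, both of the UHRF1 family with SMCHD1, had an unadjusted p below 0.05. At least the 24% of all genes tested that were called after adjustment were also below it.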

How the data were processed

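Total RNA was depleted of ribosomal RNA with Ribo-Zero Gold and made into cDNA with a SMARTer kit, per the labels' protocols. The authors deposited 1 table of read counts per gene and library, unnormalized; the submitters' processing notes name FastQC, STAR, HTSeq, DESeq2 and the build mm10, while their versions, and whether counting used strand, were not given in the sources used here. The 5 summary lines of each table were left out: 8.43 to 17.18% of reads lay in no feature, 2.12 to 2.27% were ambiguous and 30.5 to 37.28% did not map uniquely. Symbols, positions and exon lengths came from a GENCODE annotation on GRCm38, which matched 47224 of 47643 identifiers.

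Libraries were grouped by their titles, 3 of each kind. All genes were fitted together with edgeR 4.0.16 in R 4.3.3: filterByExpr defaults, TMM factors, quasi-likelihood F test, two-sided, Benjamini-Hochberg adjustment over 15573 genes, called below 0.05. The scripts were also run on simulated counts that held no shared effect of the replicate number, and no result here rests on that run. Ratios within a library were compared with exact permutation tests over libraries, with 0.5 reads added in the log2 ratios. CPM used TMM-adjusted totals, and RPKM divided it by exon length.

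The groups share replicate numbers, and same-numbered libraries deviated together from their group means (correlations 0.32, 0.40 and 0.40, against -0.28 to 0.00 between other numbers). This pairing comes from the data, not from the labels. Alternatives were RLE and upper-quartile factors, DESeq2 1.42.0, voom in limma 3.58.1, no filter, at least 2 CPM in 3 libraries, a block for the replicate number, a fit that left out mitochondrial and small RNA genes, pairs 1 and 3 only, and leaving out each library. Pairs 2 and 3 only was added after the data were seen. Members and lists were chosen with earlier results of these data known. The text names all 10 members, Uhrf1, and up to 6 called increases and 6 called decreases of the pathway list with the smallest unadjusted p.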

Additional observations from a re-analysis of the deposited data

How the results depend on the processing

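The count of all genes called (3735 of 15573) was 3890 of 15573 with upper-quartile factors and 4290 of 15573 with DESeq2. It was 3071 of 15839 with pairs 1 and 3 only and 1999 of 15774 with pairs 2 and 3 only. When a library was left out it ranged from 1768 to 3888. The counts of smaller groups below are to be read beside these. Among the 10 genes, 1 was called; 2 were called with upper-quartile factors and 2 with DESeq2, 0 with pairs 2 and 3 only, and 0 to 2 without single libraries. For Suv39h1, pairs 2 and 3 only gave a log2 fold change of -0.54 (edgeR adjusted p = 0.0924). Of the pathway list, 6 genes were called with pairs 1 and 3 only and 1 with pairs 2 and 3 only, and 1 to 8 without single libraries. The markers of other cells called fell from 26 to 11 with at least 2 CPM in 3 libraries, a filter that leaves fewer genes tested. Demethylases called higher numbered 3 with no filter, 2 with pairs 1 and 3 only and 0 with pairs 2 and 3 only. Over all genes, those called higher numbered 2120, 1383 and 978 in these settings, against 1807 in the main fit.

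Signs turned as follows, and the cause was not tested. The log2 fold change of Ehmt1 became 0.034 with upper-quartile factors and with pairs 2 and 3 only, and ranged from -1.19 to 1.09 without single libraries (1.09 without shControl replicate 1, 0.20 without shUHRF1 replicate 2 and 0.25 without shUHRF1 replicate 3). That of Cbx1 became 0.024 with upper-quartile factors. The Cbx1 share of HP1 differed by -0.042 points with pairs 2 and 3 only. The log2 ratio of Ehmt1 to Ehmt2 ranged from a difference of -0.82 without shUHRF1 replicate 1 to 0.39 without shControl replicate 1, and was 0.012 without shUHRF1 replicate 3. Setdb1, Suv39h1, Suv39h2, Ehmt2, Cbx3, Cbx5, Trim28 and Atrx kept their direction under all 16 alternatives. With the replicate block, 4820 of all genes, 1 of the 10 genes and 10 of the pathway list were called. Low counts limit Uhrf1 (1 to 8 reads per library) and Suv39h2 (58 to 82).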
